A study of Drosophila melanogaster with 6 samples.

Results

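The genes described here are 10 genes of the piRNA pathway that works in the somatic cells of the fly ovary: piwi, armi, vret, zuc, Gasz, papi, shu, mael, egg and nxf2. They were chosen by function, with earlier results of these data known. They make up 10 of the 13336 gene names with an exon, mRNA or intron feature in the deposited library tables. A gene's features were found by the first transcript name listed for each feature, and the exon, mRNA and intron features were summed apart, which gave 23 gene-by-class entries (10 exon, 9 mRNA and 4 intron). The annotation's mRNA class is listed per transcript, and the rule that placed a read there and not in the exon class is not given in the sources used here.

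The libraries are eCLIP libraries, in which ultraviolet light links protein to RNA, RNase trims the RNA, the protein is pulled down and the attached RNA is sequenced beside an input. All 6 libraries came from the Drosophila cell line OSS, named for the ovarian somatic sheath. The cells were transfected with Asterix (Gtsf1) carrying a C-terminal TEV-Strep tag in pAWG, a vector with a constitutive actin promoter, and taken 72 hours later. The crosslinked groups (2 input and 2 IP libraries) received ultraviolet light of 254 nm at a dose of 400 mJ. The non-crosslinked groups (1 input and 1 IP library) carried the same plasmid without irradiation, so no library comes from cells without tagged Asterix. Both replicates share 1 cell line, and the labels do not say that they were separate cultures, so p-values measure only the spread between these libraries. The non-crosslinked groups have no replicates.

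piRNAs are small RNAs that guide PIWI proteins to transposons. In somatic ovarian cells, long precursor transcripts are cut at the mitochondrial surface, the resulting piRNAs are loaded into Piwi in the cytoplasm, and loaded Piwi enters the nucleus, where it directs transcriptional silencing and heterochromatin at transposons. Asterix is a small zinc finger protein that binds Piwi and is needed for this silencing.

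Annotated reads ranged from 12391586 to 13658478 in the input libraries and from 2018241 to 2921685 in the IP libraries. Ribosomal RNA took 85.6% to 87.0% of the input reads and 60.1% to 69.5% of the IP reads. A count of 3 reads, used as the detection floor, was worth at most 0.242 CPM (reads scaled to the library's total of annotated reads) in an input library but 1.03 to 1.49 CPM in an IP library. Among ovarian somatic markers, tj exon reads stood at 138 and 154 CPM in the crosslinked inputs. The exon sum over 6 such markers was 169 to 218 CPM in all 6 libraries, and tj made up most of it. In the crosslinked inputs zfh1 held 46.6 and 50.4 CPM, fs(1)Yb 9.32 and 9.40 CPM, and Fas3 4.28 and 3.95 CPM. The other markers were low there, with ct at 0.565 and 0.628 CPM and hth at 0.135 and 0.220 CPM (1.67 and 3 reads). Exon reads of 8 germline markers summed to 1.37 to 1.63 CPM in the inputs and 14.7 to 17.0 CPM in the IP libraries, with bam at 0 in every input and 5 of the 8 at 3 or fewer reads in each input. The rRNA share and the germline marker sum differed between input and IP, and their part in the members' values was not tested. The gene of the tagged protein, arx, had at most 3 reads in any library, and whether reads from the plasmid were counted there is not stated.

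piwi, the effector of the pathway, dominated the members. Its exon reads were 24.2 CPM in the non-crosslinked input, 28.5 and 35.4 CPM in the crosslinked inputs, 517 CPM in the non-crosslinked IP, and 207 and 144 CPM in the crosslinked IP libraries. All 3 IP libraries lay above all inputs, and the highest value was that of the IP without crosslinking. In the fit of crosslinked IP against crosslinked input, piwi exon reads rose by 1.57 on the log2 scale (SE 0.22, 2.98-fold, n = 2 and 2, adjusted p = 1.16e-05, quasi-likelihood test of edgeR, Benjamini-Hochberg adjusted). Of 5265 exon entries tested, 16.4% were called higher, and 681 of the 5265 (12.9%) had a larger fold change than piwi. With the 3 inputs and the non-crosslinked IP pooled as the control, the value was 0.11 and did not pass (adjusted p = 0.976). That control mixes inputs with an IP library, and only 1 of 10179 entries passed with it, so the failure to pass is not particular to piwi. The plot of exon levels by library shows piwi as the one member whose libraries separate by pull-down.

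**Figure D1:**
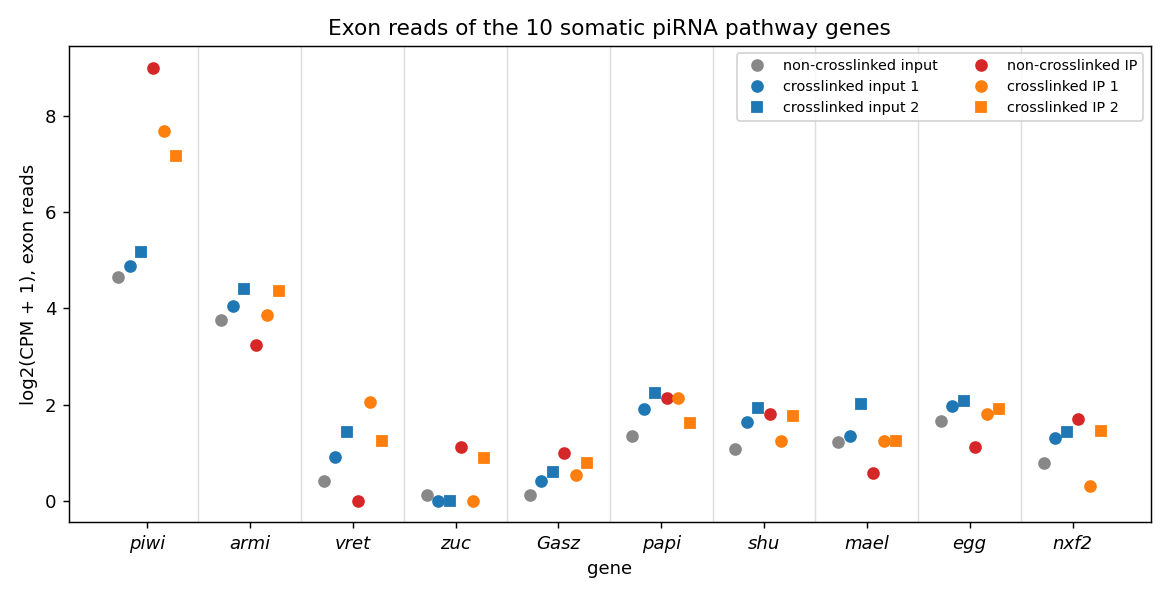
Exon reads of the 10 genes as log2(CPM + 1) on the vertical axis, with genes along the horizontal axis and 1 marker per library. For piwi all 3 IP libraries lie above the 3 inputs, with the non-crosslinked IP highest at 517 CPM, while the libraries of armi span only 8.47 to 20.3 CPM.

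The rise of piwi came from a pair of exon features. These 2, named for transcripts piwi-RA and piwi-RB without an exon number, held near-identical values in every library (in the non-crosslinked IP, 257 CPM each), so they do not count as separate observations, and their position within the gene is not given in the tables. Their reads were not whole numbers, so some reads were divided with features outside the pair, which were not identified. Together the pair held 17.3 CPM in the non-crosslinked input, 15.0 and 19.1 CPM in the crosslinked inputs, 513 CPM in the non-crosslinked IP, and 193 and 129 CPM in the crosslinked IP libraries. All other piwi exons summed to 6.96 CPM, 13.5 and 16.4 CPM, 3.47 CPM, and 13.8 and 15.1 CPM in the same order. The groups did not overlap for the pair, whereas for the other exons the crosslinked IP libraries lay within the range of the crosslinked inputs.

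As a share of piwi exon reads the pair averaged 53.3% ± 0.756 over the crosslinked inputs and 91.4% ± 2.70 over the crosslinked IP libraries (SD, n = 2 each). The exact two-sided permutation test gave p = 0.333, the smallest that 2 libraries against 2 allow. In the single non-crosslinked libraries the share was 71.3% in the input (95% Wilson interval 66.0% to 76.1%) and 99.3% in the IP (98.6% to 99.7%). These intervals cover counting error only. A share within a library needs no scaling between libraries, and here too each IP library lay above each input.

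With the pair fitted as an entry of its own, an alternative chosen after seeing the data, the 2 portions of piwi moved apart. The pair rose by 2.36 on the log2 scale (SE 0.23, adjusted p = 2.18e-07, edgeR's quasi-likelihood test). The other piwi exons fell by 0.93 on the scale of TMM, edgeR's normalization (SE 0.20, adjusted p = 0.000952 in the same fit), although their CPM values overlapped. With each feature tested by itself, exon 6, the most abundant of the others, fell by 1.33 (SE 0.22, adjusted p = 0.00149), and its levels were 8.47 and 9.08 CPM in the crosslinked inputs and 6.57 and 5.82 CPM in the crosslinked IP libraries. Exons 2, 3 and 5 did not pass, at -0.65, -0.84 and -0.72. piwi (CG6122) lies at chr2L:10982205-10987420 in the Release 6 assembly and shares 191 bases with its neighbour SCAR. All features of SCAR together held 3 reads in the non-crosslinked IP against 1036 for the piwi pair.

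**Figure D2:**
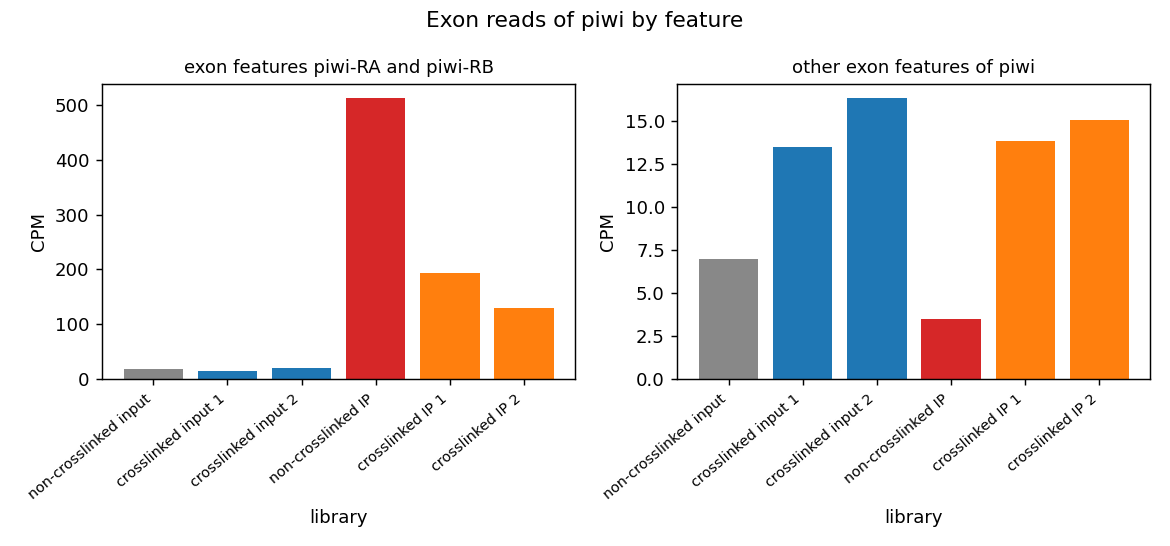
Exon reads of piwi in CPM on the vertical axis for each of the 6 libraries, with the pair of features piwi-RA and piwi-RB in the left panel and all other exon features in the right panel. The pair reaches 513 CPM in the non-crosslinked IP and is below 20 CPM in every input, while the other exons reach 16.4 CPM at most, in a crosslinked input.

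The mRNA entry of piwi went the other way from its exon sum. It held 5.60 CPM in the non-crosslinked input, 4.36 and 6.81 CPM in the crosslinked inputs, 5.45 CPM in the non-crosslinked IP, and 2.27 and 3.77 CPM in the crosslinked IP libraries. The crosslinked IP libraries were the lowest of the 6. The entry fell by 1.72 on the log2 scale (SE 0.36, adjusted p = 0.000578, edgeR's quasi-likelihood test), in a class where 65.0% of 658 tested entries were called lower and the median was -1.58. With library size alone as the scaling it stood at -0.85 and did not pass (adjusted p = 0.0952).

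Intron reads of piwi were few. The non-crosslinked input held 22, the crosslinked inputs 11 and 9, the non-crosslinked IP 1, and the crosslinked IP libraries 8 and 21. In the same order the levels were 1.76, 0.888, 0.659, 0.495, 3.62 and 7.19 CPM. Both crosslinked IP libraries lay above every other library. The 1 read of the non-crosslinked IP lay under the floor of 3 reads, worth 1.49 CPM there. Its place below the inputs is therefore not resolved. The entry rose by 1.97 on the log2 scale (SE 0.46, adjusted p = 0.00169, edgeR's quasi-likelihood test), where 70.2% of 1985 tested intron entries were called higher and the median was 1.38. Of those introns, 668 (33.7%) had a larger fold change. The call rests on the second crosslinked IP library, without which the value was 1.35 (adjusted p = 0.0988). Most of these reads lay in the intron numbered 6, with 9 and 7 reads in the crosslinked inputs and 5 and 18 in the crosslinked IP libraries, and this single feature rose by 2.05 (SE 0.51, adjusted p = 0.0101).

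None of the tested exon entries of the biogenesis genes (armi, papi, shu and vret) was called higher, where 16.4% of all exon entries were. armi encodes an RNA helicase that carries piRNA precursors toward processing, and it was the second most abundant member. Its exon reads were 12.5 CPM in the non-crosslinked input, 15.6 and 20.3 CPM in the crosslinked inputs, 8.47 CPM in the non-crosslinked IP, and 13.5 and 19.7 CPM in the crosslinked IP libraries. The crosslinked groups overlapped on this scale, and the non-crosslinked IP was lowest. On the TMM scale, which sets the bulk of entries near 0, armi exon reads fell by 0.96 on the log2 scale (SE 0.21, adjusted p = 0.00104, edgeR's quasi-likelihood test). With library size alone as the scaling the value was -0.09 and did not pass (adjusted p = 0.830). The armi mRNA entry, with 28 and 24 reads in the crosslinked inputs and 2 and 6 in the crosslinked IP libraries, stood at -1.24 and did not pass (SE 0.54, adjusted p = 0.0568). It passed without input 2 (-1.56, adjusted p = 0.0368) and without IP 2 (-1.99, 0.0377), and did not without input 1 (-0.96, 0.196) or without IP 1 (-0.84, 0.231).

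By feature, the unnumbered exon shared by transcripts armi-RB, armi-RC and armi-RD fell by 1.82 on the log2 scale (SE 0.42, adjusted p = 0.00707) and the exon numbered 4 fell by 1.18 (SE 0.38, adjusted p = 0.0286) in the single-feature fit. The other 4 tested armi exon features lay between -1.46 and -0.19 and did not pass. The most abundant one, exon 3, held 48 and 82 reads in the crosslinked inputs against 9 and 19 in the crosslinked IP libraries. armi (CG11513) lies at chr3L:3461317-3466314. An annotated gene, CG46463, spans the same 4998 bases and has no feature in the tables, and whether counting used strand is not stated.

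papi and shu, the next most abundant biogenesis genes, had under 10 exon reads in each IP library. papi encodes a Tudor protein of the mitochondrial surface that takes part in trimming piRNA ends. Its exon reads numbered 34 and 51 in the crosslinked inputs and 7.5 and 6 in the crosslinked IP libraries, or 2.74, 3.73, 3.40 and 2.05 CPM, and the groups overlapped. It fell by 1.12 on the log2 scale of TMM (SE 0.41, adjusted p = 0.0260, edgeR's quasi-likelihood test). The call was lost without input 1 (adjusted p = 0.0630), without input 2 (0.139) and without IP 2 (0.226).

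shu encodes a co-chaperone needed to load piRNAs into Piwi. Its exon reads numbered 26 and 38 in the crosslinked inputs and 3 and 7 in the crosslinked IP libraries, or 2.10, 2.78, 1.36 and 2.40 CPM, and the groups overlapped. It fell by 1.20 on the log2 scale of TMM (SE 0.47, adjusted p = 0.0351), and its exon 2 taken alone fell by 1.24 (adjusted p = 0.0335 in the single-feature fit). The call for the gene was lost without input 1 (adjusted p = 0.0679), without input 2 (0.123) and without IP 1 (0.149).

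vret, zuc and Gasz were at the edge of detection. vret encodes a Tudor protein needed for piRNA production, zuc the nuclease that cuts piRNA precursors, and Gasz a scaffold that holds the machinery at the mitochondrial membrane. vret exon reads numbered 11 and 23 in the crosslinked inputs and 7 and 4 in the crosslinked IP libraries (0.888, 1.68, 3.17 and 1.37 CPM), and 0 in the non-crosslinked IP, where a count of 0 allows up to 1.49 CPM. Its fitted value was -0.14 on the log2 scale (SE 0.54, adjusted p = 0.827), and its sign turned with library size alone as the scaling (0.73), so no direction is given. zuc had at most 2.5 reads in any library and 0 in both crosslinked inputs, and Gasz at most 7 reads, so neither was tested. For the mRNA entries of vret and mael, 0 reads in all 3 IP libraries allow up to 1.03 CPM even in the deepest, above the input levels of at most 0.560 CPM, so a loss was not detectable at this depth.

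Among the nuclear genes, egg encodes the histone methyltransferase that deposits the H3K9 mark, mael a protein that acts downstream of Piwi in transcriptional silencing, and nxf2 an RNA export factor relative that acts with Panoramix. egg exon reads were 2.91 and 3.22 CPM in the crosslinked inputs and 2.49 and 2.74 CPM in the crosslinked IP libraries, from 36 and 44 against 5.5 and 8 reads. The crosslinked groups lay apart by less than 1 read in IP 2 (0.342 CPM), so they were not resolved on this scale. The non-crosslinked input (2.16 CPM) lay below both crosslinked IP libraries. The entry fell by 1.04 on the log2 scale of TMM (SE 0.40, adjusted p = 0.0321, edgeR's quasi-likelihood test). Its call was lost without any 1 of the 4 libraries (adjusted p = 0.128 without input 1, 0.103 without input 2, 0.0637 without IP 1 and 0.103 without IP 2).

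mael exon reads were 1.53 and 3.03 CPM in the crosslinked inputs and 1.36 and 1.37 CPM in the crosslinked IP libraries, from 19 and 41.3 against 3 and 4 reads. Here too the crosslinked groups lay apart by less than 1 read in IP 2 (0.342 CPM). The non-crosslinked input (1.33 CPM) lay below both crosslinked IP libraries. The entry fell by 1.60 on the log2 scale (SE 0.54, adjusted p = 0.0177), a call lost without input 2 (adjusted p = 0.120) and without IP 2 (0.0535). nxf2 had 18 and 23.3 exon reads in the crosslinked inputs and 0.5 and 5 in the crosslinked IP libraries, and its value of -1.55 did not pass (SE 0.67, adjusted p = 0.0562). The value turned on IP 1 and its 0.5 reads. Without IP 1 it was -0.75. With IP 1 as the only IP library it was -6.99, but the 0.5 reads were rounded to 0 for the fit, so that size is not resolved. Without input 1 the value was -1.56, and without input 2 it was -1.58.

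Over all members, 11 of the 23 entries, from 8 genes, had enough reads to be tested. Of these, 2 were called higher (piwi exon and piwi intron), 6 were called lower (the exons of armi, egg, mael, papi and shu and the mRNA entry of piwi), and 3 did not pass. Over all exon, mRNA and intron entries 29.0% were called lower and 29.0% higher. The 5 exon entries called lower stand beside a background of 34.9% of exon entries called lower. The median over the 8 tested member exons was -1.08 on the log2 scale, and -1.12 over the 7 without piwi, against -0.53 over all tested exon entries. Of the 17 single member features tested, 6 were called lower and 3 higher, where 26.7% and 26.0% of all single features were. The higher calls include the piwi-RA and piwi-RB exons, with near-identical values. The lower calls include the piwi-RA and piwi-RB mRNA features, with identical values. These counts are therefore not counts of separate observations.

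Of the scalings tried, library size alone ended the lower calls. With it, edgeR called 0 of the 11 member entries lower (0 also at an unadjusted p under 0.05), and piwi exon and piwi intron stayed higher. With DESeq2 size factors in the same edgeR fit the counts were 6 lower and 2 higher, and with library size without rRNA they were 8 lower and 2 higher. DESeq2's Wald test, another test as well as another scaling, called 2 lower and 2 higher. Library size alone moved the median of all 8968 entries from -0.07 to 0.80, and the calls over all entries from 2492 lower and 2802 higher to 494 lower and 4139 higher. Summed in CPM, the member exons without piwi held 19.8, 27.6 and 36.9 CPM in the inputs (non-crosslinked, then crosslinked 1 and 2) and 20.4, 25.9 and 32.9 CPM in the IP libraries in the same order. These ranges overlap.

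**Figure D3:**
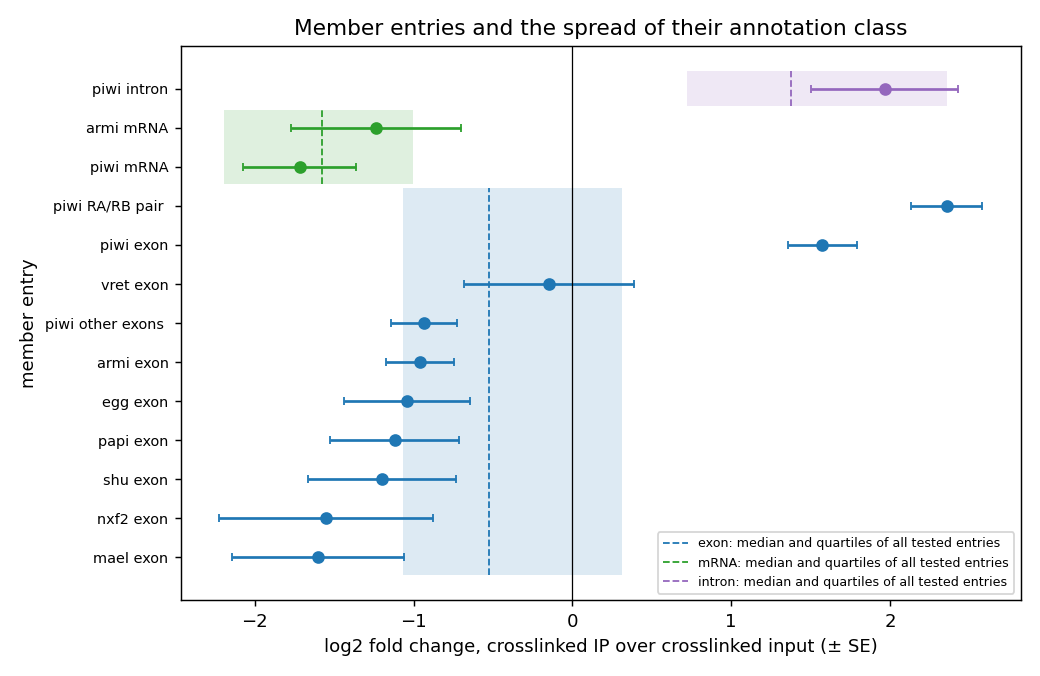
Log2 fold change of crosslinked IP over crosslinked input for each tested member entry on the horizontal axis, with SE bars, entries on the vertical axis, and the median (dashed) and quartiles (shaded) of all tested entries of the same annotation class. The exon of piwi (1.57) lies to the right of its class and its mRNA (-1.72) lies close to the class median of -1.58, while the other member exons lie between -1.60 and -0.14.

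Per kilobase of gene span, piwi was also the most abundant member in the crosslinked inputs, at 7.35 ± 1.24 CPM of exon, mRNA and intron reads per kb (SD, n = 2). armi followed at 3.99 ± 0.589 and shu at 1.50 ± 0.253, and the libraries of these 3 genes did not overlap. The gap between piwi and armi rests largely on the piwi-RA and piwi-RB pair, some of whose reads were divided with unidentified features. That pair held 15.0 and 19.1 CPM in the crosslinked inputs. Outside it, piwi exons held 13.5 and 16.4 CPM there, against 15.6 and 20.3 CPM for armi exons. egg (0.873 ± 0.0724), papi (0.780 ± 0.127), vret (0.634 ± 0.246), mael (0.546 ± 0.205) and nxf2 (0.504 ± 0.0178) followed, with neighbours in that order within each other's spread. Gasz had 0.212 ± 0.0868, and zuc had 0 reads in both libraries. The remaining genes lie at chr3R:22742954-22745581 (vret), chr2L:11988735-11989882 (zuc), chr2L:2220748-2225544 (papi), chr3L:22721203-22726234 (mael) and chr3L:16576859-16580306 (nxf2), and Gasz, shu and egg lie on arm 2R. Annotated neighbours overlap egg over 4191 bases (asRNA:CR44067, at most 2 reads in any library) and mael over 862 bases (CG14451, likewise at most 2), so reads there cannot be placed on either gene without strand. In bulk libraries, fewer cells that express a gene and less RNA per cell cannot be told apart.

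The non-crosslinked IP tells what the pull-down recovered without irradiation. In a fit of all 6 libraries, which assumes that the single non-crosslinked libraries vary like the others, piwi exon reads were lower in the crosslinked IP than in the non-crosslinked IP by 1.43 on the log2 scale (SE 0.27, adjusted p = 3.10e-06, edgeR's quasi-likelihood test). The piwi pair alone was lower by 1.55 (adjusted p = 1.77e-07), and the other piwi exons were higher by 2.18 (SE 0.51, adjusted p = 0.000362). The piwi intron was higher by 3.57 (SE 1.03, adjusted p = 0.00692), against a single read in the non-crosslinked IP, and the call was lost without IP 2 (adjusted p = 0.174). armi exon was higher by 1.15 (SE 0.40, adjusted p = 0.0358), a call lost without input 1 (adjusted p = 0.125), input 2 (0.122) or IP 2 (0.506), with library size alone (0.164) and with no filter beyond 1 read (0.0977). Of the 11 member entries, 1 was called lower and 2 higher, where 7.27% and 3.18% of all exon, mRNA and intron entries were.

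The IP over input itself differed with crosslinking for 2 member entries. For piwi exon it was 3.21 on the log2 scale without crosslinking, and the crosslinked value was lower by 1.69 (SE 0.40, adjusted p = 0.000932, interaction in edgeR's quasi-likelihood fit). For the piwi intron it was -2.95 without crosslinking, and the crosslinked value was higher by 4.88 (SE 1.14, adjusted p = 0.000793 in the same fit). Both values rest on 1 read in the non-crosslinked IP, under the floor of 3 reads, so their size is not resolved. The remaining 9 tested member entries did not pass this test, and over all exon, mRNA and intron entries 1.72% were called lower and 3.72% higher. For the piwi pair the difference was -1.39 (SE 0.40, adjusted p = 0.0101), and for the other piwi exons 1.22 (SE 0.60, adjusted p = 0.269). Without crosslinking, the armi exon value was -1.76 (SE 0.39). Those of nxf2, shu and papi were 0.26 (SE 0.95), -0.05 (SE 0.81) and -0.01 (SE 0.69), from 4.5, 5 and 6.83 reads in the non-crosslinked IP. For egg the value was -2.29 (SE 0.89) and for mael -2.58 (SE 1.18). These rest on 2.33 reads and 1 read in the non-crosslinked IP, under the floor of 3 reads, so their size is not resolved.

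**Figure D4:**
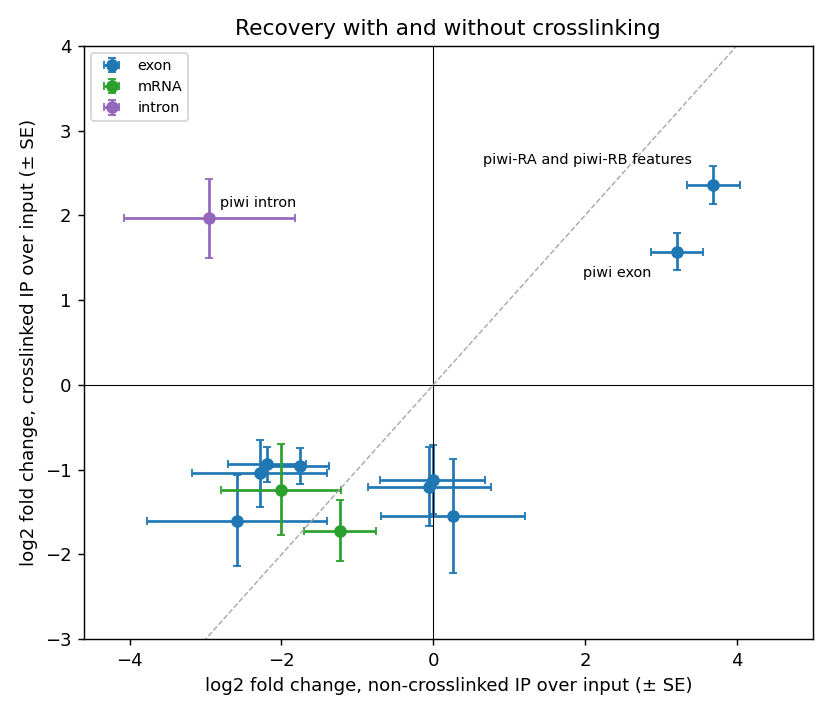
Log2 fold change of IP over input without crosslinking on the horizontal axis (fit of all 6 libraries) and with crosslinking on the vertical axis (fit of the 4 crosslinked libraries), with SE bars, for the tested member entries and the 2 portions of the piwi exons, and a dashed line where both are equal. The piwi pair and piwi exon lie to the far right, at 3.69 and 3.21 without crosslinking, below the dashed line. The piwi intron lies above that line, at -2.95 without crosslinking, a value that rests on 1 read in the non-crosslinked IP. The entry for vret exon is left out because the non-crosslinked IP held 0 reads.

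Across libraries, piwi exon reads stood in the order non-crosslinked IP, then both crosslinked IP libraries, then all inputs. That order held for 1099 of the 5265 tested exon entries (20.9%), and piwi was the only member among them. By Euclidean distance between centred log2(CPM + 1) values over the 6 libraries, the nearest exon entries were Ipp (distance 0.237), GlcAT-I (0.256) and CG5397 (0.305). Their fitted log2 changes were 2.35, 2.75 and 3.94, each larger than the 1.57 of piwi. The added 1 CPM shrinks differences at low input levels, so the nearness is not one of fold change. CG5397 held at most 0.220 CPM in an input, at or under the floor of 3 reads. Ipp encodes inositol polyphosphate 1-phosphatase, and its exon reads were 0.726 and 1.27 CPM in the crosslinked inputs, 27.9 CPM in the non-crosslinked IP, and 10.3 and 8.56 CPM in the crosslinked IP libraries.

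Introns made up a small share of the members' reads. Of intron plus exon reads over the 10 genes, the non-crosslinked input had 4.18% in introns, the crosslinked inputs 1.70% and 1.31%, the non-crosslinked IP 0.184%, and the crosslinked IP libraries 2.46% and 4.27%. The crosslinked IP libraries lay above the crosslinked inputs, and the non-crosslinked input lay within their range. The non-crosslinked IP share rests on 2 intron reads, under the floor of 3 reads, and the piwi pair held 1036 of its 1084 member exon reads. Without piwi the shares in the inputs (non-crosslinked, then crosslinked 1 and 2) were 0.801%, 0.292% and 0.819%. In the IP libraries they were 2.38%, 8.03% and 2.04% in the same order, on at most 5 intron reads a library. The mean was 1.51% ± 0.271 in the crosslinked inputs and 3.37% ± 1.28 in the crosslinked IP libraries (SD, n = 2 each), and the exact two-sided permutation test gave p = 0.333, the smallest that 2 against 2 allow. Over all genes the share was 28.3% to 30.2% in the crosslinked inputs and 49.5% to 50.7% in the crosslinked IP libraries. For piwi alone the groups overlapped, at 3.02% and 1.83% in the crosslinked inputs and 1.72% and 4.77% in the crosslinked IP libraries (exact permutation p = 1). papi, mael and egg were the other members with an intron entry, with at most 3 intron reads in any library.

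The authors' deposited table of ratios, whose formula is not stated, lists 26 features of 6 members (18 exon, 5 mRNA and 3 intron features). The 18 exon features have a median ratio of 1.47 in the authors' deposited table, where all listed exon features have a median of 2.11. In the authors' deposited table the largest member ratios are those of vret exon 6 (47.7), piwi intron 3 (17.9) and piwi intron 6 (13.8), and the piwi-RB exon of the pair has 0.317. The numbered piwi exons 7, 2 and 6 have 5.96, 3.41 and 1.07 in the authors' deposited table. vret exon 6, piwi intron 3 and piwi exon 7 were too sparse to be tested by themselves. piwi intron 3 had at most 3 reads in any library, and piwi exon 7 had 2 reads in each crosslinked IP library.

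Other genes of the pathway, in 4 lists, gave 57 tested entries, of which 29 were called lower and 6 higher, where 29.0% of all exon, mRNA and intron entries were called lower and 29.0% higher. The lists mix classes whose own shares differ (34.9% of exon and 65.0% of mRNA entries lower, 70.2% of intron entries higher). Further somatic biogenesis genes had 5 of 7 lower with a median of -1.08 on the log2 scale, among them SoYb exon (-1.99), a Tudor protein of the Yb family, and both the mRNA (-2.43) and exon (-1.33) entries of the chaperone gene Hsp83. Partners of nuclear silencing had 9 of 17 lower and 1 higher with a median of -1.26, among them sov exon (-2.24), a zinc finger protein of heterochromatin, and Mi-2 mRNA (-3.28), a chromatin remodeller. Export and exon junction factors had 9 of 19 lower and 1 higher with a median of -0.95, among them tho2 exon (-1.93) of the THO complex. Germline piRNA genes had 6 of 14 lower and 4 higher with a median of -0.01. Among those, tapas exon fell by 1.75 and AGO3 intron reads rose by 1.83. The AGO3 intron held 4.17 and 4.07 CPM in the crosslinked inputs and 35.1 and 20.6 CPM in the crosslinked IP libraries. Its highest level was 49.4 CPM, in the non-crosslinked IP. Over all tested entries the median was -0.07. With library size alone the lists had 12 entries lower and 13 higher.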

How the data were processed

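The 6 library tables gave a value per annotated feature in 2 units. Estimated counts were deposited, with some reads divided between features, as were RPM values, the same counts scaled to the library total. Both descriptions were checked on the values. The authors also deposited a table of 1 ratio per feature without a formula. Per the submitters' processing notes, bcl2fastq 2.19, STAR 2.5.2b and bedtools 2.29.0 were used, and the builds dm6 and mm10 are named without a role. Strand use and removal of duplicate reads are not given in the sources used here.

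Reads outside any annotation (2.15% to 13.6% of a library) were left out. Features were summed by gene name within each class over the whole table, transposons by element and tRNAs by anticodon, and rounded to whole counts for tests. Groups and replicate numbers came from the sample titles. Crosslinked IP was compared with crosslinked input with edgeR 4.0.16 in R 4.3.3: all annotated reads as library size, TMM factors, filterByExpr and the two-sided quasi-likelihood F test, Benjamini-Hochberg adjusted over 8968 entries, with a threshold of 0.05. The SE is the log2 fold change over the square root of F. A second fit with 4 groups used all 6 libraries. The fit was tested on simulated data. Alternatives were DESeq2 1.42.0, limma 3.58.1 on log2(RPM + 1), other scalings and filters, and libraries left out. Sums and figures used Python 3.11.15 (numpy 2.4.6, pandas 2.3.3, matplotlib 3.10.9, scipy 1.17.1).

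Named are all members with their entries, the most abundant feature of a member, up to 4 called entries of largest change per other list, the cell type markers, and the 3 exon entries nearest to piwi. The members, the lists and the tests were chosen with earlier results of these data known. Gene positions are from RefSeq's Release 6 gene table. Of the names in the lists, daed, nbr, eIF4A3, nxf3, boot and osk matched no feature. The labels share replicate numbers between input and IP, but same-numbered libraries did not deviate together (correlation 0.07), so no pairing was assumed.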

Additional observations from a re-analysis of the deposited data

Results flagged for a closer look

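The recovery of piwi exon reads over input differed between crosslinked and non-crosslinked libraries, by -1.69 on the log2 scale (SE 0.40, adjusted p = 0.000932, crosslinked minus non-crosslinked, interaction in edgeR's quasi-likelihood fit). The recovery of piwi intron reads differed in the opposite direction, by 4.88 (SE 1.14, adjusted p = 0.000793 in the same fit). The non-crosslinked IP held 1 intron read, under the floor of 3 reads, so the size of that difference is not resolved. Both were marked because the test of the difference itself passed. The single non-crosslinked libraries were assumed to vary like the others, and whether a second non-crosslinked pair would give the same values was not tested.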

How the results depend on the processing

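Of the 11 tested member entries, 6 were lower and 2 higher, of 5294 called over all entries. Lower member entries numbered 0 with library size alone, 0 with a pooled control of the 3 inputs plus the non-crosslinked IP (1 at an unadjusted p under 0.05), 1 with at least 10 counts in every crosslinked library, 2 with DESeq2's Wald test, 1 with limma on the deposited RPM values, 2 at an adjusted p under 0.01, 4 to 5 with a library left out, 6 with DESeq2 size factors and 8 with library size without rRNA. Higher member entries numbered 1 with at least 10 counts, 0 with the pooled control, 1 with all classes of a gene summed, and 1 to 2 with a library left out. Calls over all entries fell to 2620 with at least 10 counts, 3055 with DESeq2 and 1 with the pooled control (935 unadjusted), and ranged from 4172 to 4678 with a library left out. The other pathway lists had 29 lower and 6 higher. Lower became 12 (library size alone), 14 (at least 10 counts), 0 (pooled control), 15 (DESeq2), 14 (limma) and 24 to 27 (library left out), and higher became 13, 0 (pooled control), 3 (DESeq2), 13 (limma) and 3 to 7. With a library left out, crosslinked against non-crosslinked IP gave 1085 to 2119 calls of a main 1584, and the interaction 386 to 1014 of a main 859, with 386 without input 1 and 395 without input 2. With the pair apart, an alternative added after seeing the data, the remaining piwi exons stood at -0.93, 2.18 against the non-crosslinked IP and 1.22 for the interaction, against 1.57, -1.43 and -1.69 for all piwi exons. vret exon turned from -0.14 to 0.73 (library size alone), 0.54 (pooled control), 0.00973 (DESeq2), 0.42 (limma) and, with a library left out, between -0.80 and 0.41. Without IP 2, armi mRNA turned to -0.84 against the non-crosslinked IP and -0.23 for the interaction, with ranges up to 0.35 and 1.02. The members' intron share differed by 1.86 percentage points, 0.957 to 2.76 with a library left out, 0.82 for piwi alone, 4.48 without piwi and, on at most 3 intron reads a library, 13.5 for papi, 21.1 for mael and 13.3 for egg alone. With the replicate block, 5483 entries, 8 member entries lower and 2 higher were called, the added ones being nxf2 exon (adjusted p = 0.0263) and armi mRNA (0.0446). The causes were not tested. Depth in the IP libraries limits all member entries but the exon entries of piwi and armi. It also limits the piwi exons outside the pair, which had 7 reads in the non-crosslinked IP.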

Other observations

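Among ovarian somatic markers, 4 of 11 tested entries were called lower and 5 higher between crosslinked input and crosslinked IP, where 29.0% of all exon, mRNA and intron entries were called lower and 29.0% higher. Of the higher calls, 4 were introns (Fas3, ct, hth and zfh1), a class in which 70.2% of all tested entries were called higher. Intron reads of hth, which encodes a homeodomain protein, were 2.20 and 2.49 CPM in the crosslinked inputs, 335 CPM in the non-crosslinked IP, and 146 and 81.0 CPM in the crosslinked IP libraries, a log2 change of 4.70 (SE 0.29, adjusted p = 9.77e-10, edgeR's quasi-likelihood test). Intron reads of ct, another homeodomain gene, were 2.12 and 1.19 CPM in the crosslinked inputs and 24.2 CPM in the non-crosslinked IP. The crosslinked IP libraries held 27.5 and 23.7 CPM of them (3.08, SE 0.29, adjusted p = 1.53e-07 in the same fit). Exon reads of zfh1, a zinc finger and homeodomain gene, were called lower at -1.23 on the TMM scale, from 46.6 and 50.4 CPM in the crosslinked inputs and 37.9 and 38.4 CPM in the crosslinked IP libraries.

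Of the germline markers, the tested entries were aub exon and AGO3 intron, both called higher. For aub exon, the non-crosslinked input had 0 reads, the crosslinked inputs 1 and 2, the non-crosslinked IP 5.5, and the crosslinked IP libraries 29.8 and 25.1, so its inputs lay at or under the floor of 3 reads and no fold change is given.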
